A study of Mus musculus with 4 samples.

Results

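The collagen genes of 4 mouse tumours were followed by cell class and compared between tumours grown from Hnrnpa2b1-knockout (KO) and WT cells. Every gene whose symbol has the form Col, number, a, number was taken, which gave 44 members of the 55450 features of the files. Of these, 43 had at least 1 UMI (unique molecular identifier, a counted RNA molecule) and Col9a1 had none. At least 100 UMIs over all cells were found for 34 members, and 10 were below that. The tumours grew under the skin of the flank of C57BL/6J mice given MC38 cells, a mouse colon carcinoma line, at an age of 8 weeks. Hnrnpa2b1, whose protein binds RNA in the nucleus and belongs to the hnRNPs, was knocked out in the injected cells of the KO group only, so the host cells of both groups carry no edit that the labels name. Each group held 2 tumours, WT 1 and 2 and KO 1 and 2. The position of the edit, the number of KO clones and the sex of the mice are not stated in the labels. Tumours were minced and digested with collagenases and dispase, and all cells went into droplet single-cell RNA sequencing without a stated sort.

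Collagens are secreted proteins built from chains that wind into triple helices. The fibrillar types I, III and V form the cross-linked fibrils that give a tissue its tensile strength. Type IV forms the sheet-like network of basement membranes under endothelium and epithelium, type VI forms beaded filaments around cells, and smaller types decorate fibrils, anchor membranes or span the cell membrane. In solid tumours fibroblasts are the best-known source of fibrillar collagen, and endothelial and mural cells lay down the basement membrane of vessels.

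Cells were named from marker genes that hold no collagen, and the collagen genes were also left out of the clustering, so their levels did not define the classes. Fibroblast-like cells numbered 154 and 201 in the WT and 350 and 236 in the KO tumours. Among them were myofibroblast-like cells with Lrrc15 and Myl9 (107, 20, 77 and 185 in WT 1, WT 2, KO 1 and KO 2), adventitial-like cells with Pi16, Clec3b and Dpp4 (22, 157, 134 and 12), and other fibroblast-like cells (25, 24, 139 and 39). Tumours of 1 group thus differed in the make-up of their fibroblasts: of the fibroblast-like cells, the myofibroblast-like were 69.5% and 9.95% in the WT and 22.0% and 78.4% in the KO tumours. The myofibroblast-like cells came from sub-clusters 1, 5 and 8 of the stromal cells. Sub-clusters 1 and 5 also held Tnc, Acta2, Tagln and Tpm2 above other fibroblast-like cells. Sub-cluster 8, with 11, 2, 10 and 67 cells in WT 1, WT 2, KO 1 and KO 2, did not. Mural-like cells with Rgs5, Notch3 and Higd1b numbered 29 in WT 1, 0 in WT 2, 43 in KO 1 and 49 in KO 2, and endothelial-like cells with Cdh5 and Pecam1 numbered 40, 16, 55 and 71. No cluster carried enough epithelial markers to be called tumour cells: the 12 markers summed to 1.72 to 3.22 CPM (UMIs of a gene per 1000000 UMIs of the class in a tumour) in the class that stands in their place, and Cdx2 was at 0. That class holds clusters with a mean below 1 UMI of Xist and below 1 UMI of Ptprc, the leukocyte antigen CD45, per 10000 UMIs, and is called Xist-low. It numbered 8056 and 5887 cells in the WT and 1226 and 2502 in the KO tumours. Hnrnpa2b1 itself stood at 564 and 545 in the WT and 357 and 324 TMM-scaled CPM in the KO tumours, log2 fold change -0.70, SE 0.13, edgeR adjusted p = 0.0309, so its RNA fell without vanishing. The 4 libraries held 114136609 to 153162562 UMIs in 9547 to 12741 barcodes, and pairs of libraries shared 23 to 43 barcodes, at most 0.45% of the smaller library. The labels do not say what a tumour number shares, so p-values measure the spread between 2 tumours a group.

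The stretch before the transcription start is shown for 4 members on which the results below turn: Col3a1, which fell in Xist-low cells; Col8a1, which rose in endothelial-like cells; Col13a1, which among the named classes was found almost only there; and Col15a1, which rose over whole tumours. Each sequence is the 250 bases before the RefSeq start in GRCm38.p6, read 5′ to 3′ on the gene's own strand. The windows are chr1:45311288-45311537 (plus strand), chr16:57754738-57754987 (minus), chr10:61979109-61979358 (minus) and chr4:47207762-47208011 (plus). Capitals mark the TATA-type motif TATAAA and the GC-box motif GGGCGG, on either strand (TTTATA and CCGCCC on the other).
Col3a1: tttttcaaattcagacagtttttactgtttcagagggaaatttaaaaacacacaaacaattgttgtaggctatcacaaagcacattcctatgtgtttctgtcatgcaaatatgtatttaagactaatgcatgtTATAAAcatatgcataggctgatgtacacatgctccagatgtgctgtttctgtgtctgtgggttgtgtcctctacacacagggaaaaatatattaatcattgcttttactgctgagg
Col8a1: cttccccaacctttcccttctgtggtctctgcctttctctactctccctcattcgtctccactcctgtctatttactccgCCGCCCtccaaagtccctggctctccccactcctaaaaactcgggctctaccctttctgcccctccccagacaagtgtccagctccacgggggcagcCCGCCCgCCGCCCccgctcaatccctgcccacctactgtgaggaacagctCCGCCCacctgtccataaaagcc
Col13a1: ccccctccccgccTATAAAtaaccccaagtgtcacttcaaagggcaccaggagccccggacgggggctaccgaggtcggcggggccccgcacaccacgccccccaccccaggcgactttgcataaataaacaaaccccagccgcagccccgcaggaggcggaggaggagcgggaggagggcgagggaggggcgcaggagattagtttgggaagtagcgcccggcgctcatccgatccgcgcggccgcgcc
Col15a1: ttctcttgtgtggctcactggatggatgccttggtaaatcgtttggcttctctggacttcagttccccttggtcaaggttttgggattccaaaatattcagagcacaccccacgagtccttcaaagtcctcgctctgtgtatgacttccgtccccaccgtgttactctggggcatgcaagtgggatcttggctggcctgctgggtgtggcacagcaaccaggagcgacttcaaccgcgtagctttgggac
The Col3a1 window held 1 TATAAA, which began 117 bases before the start, and no GGGCGG. The Col8a1 window held 4 GGGCGG and no TATAAA, the Col13a1 window 1 TATAAA, and the Col15a1 window neither. Over all 32851 such windows in the table, 12.4% held TATAAA and 32.7% held GGGCGG. Windows were found for 35 of the 44 members, 38 windows in all, of which 5 held TATAAA and 22 held GGGCGG. A match is a run of letters and not a measured site.

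Fibroblast-like cells gave the largest part of their RNA to collagen. Collagen UMIs made up 5.39% to 8.60% of their UMIs over the 4 tumours, against 2.14% to 2.64% in mural-like, 0.831% to 1.06% in endothelial-like and 0.142% to 0.309% in Xist-low cells. These ranges did not overlap. T and NK-like cells, which should make no fibrillar collagen, held 0.0250% to 0.0658%, and serve here as the level of free RNA in the droplets. The 6 members with most UMIs, Col3a1, Col1a2, Col1a1, Col6a3, Col6a1 and Col6a2, held 81.5% of all collagen UMIs. Levels by class are a description without a test, because genes that vary with the collagens helped to form the clusters. UMIs were not scaled by transcript length, so levels are compared between classes for a gene and not between genes.

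**Figure D1:**
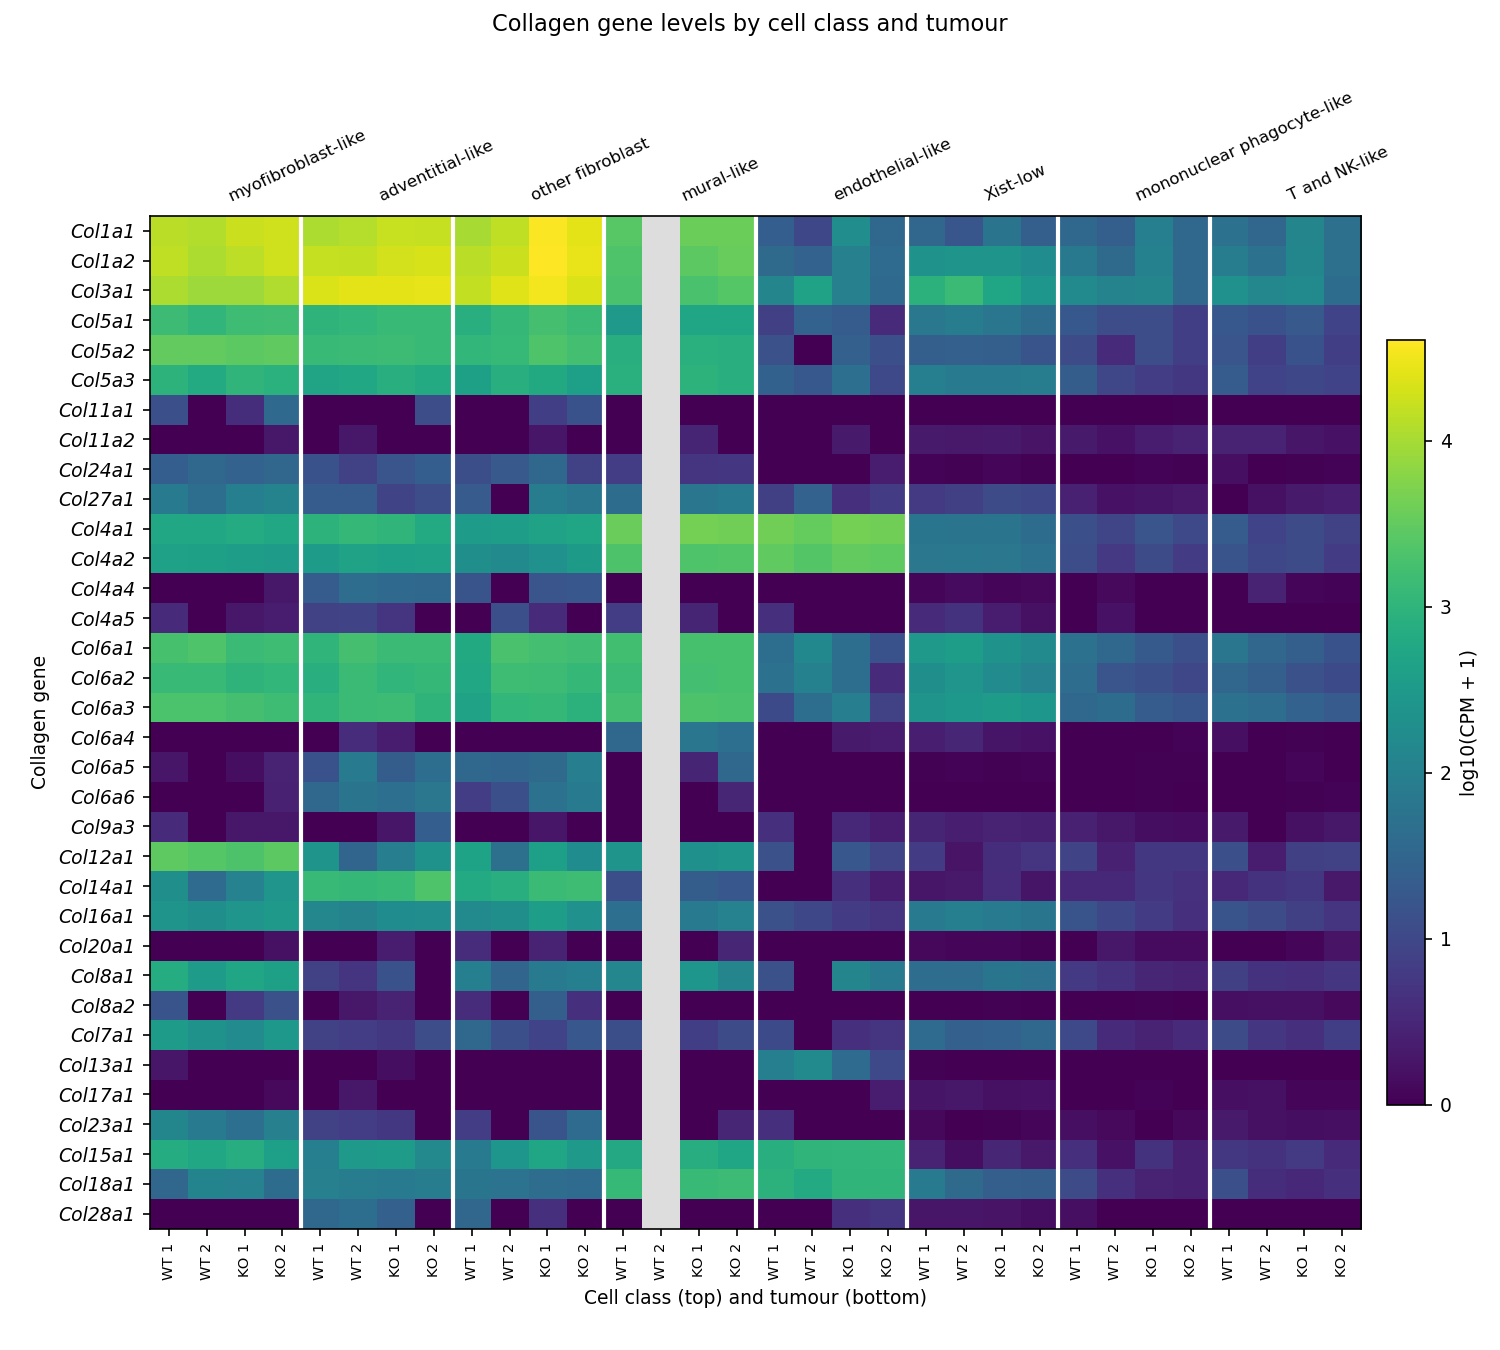
Levels of the 34 collagen genes with at least 100 UMIs (rows) in 8 cell classes and 4 tumours (columns), as log10(CPM + 1). Fibrillar genes are brightest in the 3 fibroblast classes, Col4a1 and Col4a2 in mural-like and endothelial-like cells, and Col13a1 in endothelial-like cells; the grey column is WT 2, which had no mural-like cell.

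Of the 34 members, 13 had their highest mean level in myofibroblast-like, 9 in adventitial-like, 7 in mural-like, 3 in endothelial-like and 2 in Xist-low cells, among these 5 classes. For 17 of them the tumours of the highest class did not overlap those of the next class. These were 7 in myofibroblast-like cells (Col5a2, Col7a1, Col8a1, Col12a1, Col16a1, Col23a1, Col24a1), 4 in adventitial-like cells (Col3a1, Col4a4, Col6a6, Col14a1), 3 in mural-like cells (Col6a2, Col6a4, Col18a1) and 3 in endothelial-like cells (Col4a2, Col13a1, Col15a1). The same count was not made over all genes, so it does not set collagens apart from other genes. Mural-like values lack WT 2, which held no such cell. The 2 members highest in Xist-low cells among these 5 classes, Col11a2 and Col17a1, were rare in all 5 and overlapped between them. Outside these classes, unnamed clusters held 83.8% of the 315 Col17a1 UMIs of KO 1.

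Among the fibrillar genes, Col3a1, the type III chain of pliable fibrils, lies at chr1:45311538-45349706 of GRCm38. It stood at 22537 and 26469.6 CPM in the WT and 26186 and 27778 CPM in the KO tumours in adventitial-like cells and at 10927 and 8579 CPM in the WT and 8617 and 11514 CPM in the KO tumours in myofibroblast-like cells. All adventitial-like values lay above all myofibroblast-like ones. Exons of Col3a1 and of the predicted gene Gm47302 overlap on the same strand, so the Col3a1 count is uncertain. Col5a2, a type V chain that takes part in starting fibrils, went the other way, with 2836 to 3182 CPM in myofibroblast-like and 1271 to 1432 CPM in adventitial-like cells. It lies 24614 bases from Col3a1, on the opposite strand. Col1a1, the main chain of type I collagen (chr11:94936224-94953042), did not separate the subtypes: it was 13378 and 11971 CPM in the WT and 17490.0 and 19061 CPM in the KO tumours in myofibroblast-like and 10789 and 12399.9 CPM in the WT and 16833 and 16179 CPM in the KO tumours in adventitial-like cells.

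The chains of type I collagen were out of step in Xist-low cells. Col1a2 (chr6:4504814-4541544), the partner chain of Col1a1, stood at 234 and 241 CPM in the WT and 245 and 171 CPM in the KO tumours there, whereas Col1a1 stood at 32.2 and 15.8 CPM in the WT and 58.9 and 24.2 CPM in the KO tumours. Xist-low cells held 7.27 and 15.2 Col1a2 UMIs per Col1a1 UMI in the WT and 4.16 and 7.09 in the KO tumours. In myofibroblast-like cells this ratio was 0.795 to 1.08, in adventitial-like cells 1.19 to 1.51, in mural-like cells 0.751 to 0.922 and in T and NK-like cells 0.991 to 1.67. Every Xist-low value lay above every value of these classes. The Col1a1 level of Xist-low cells was also below that of T and NK-like cells, 52.9 and 32.8 CPM in the WT and 126 and 49.1 CPM in the KO tumours, while their Col1a2 exceeded the T and NK-like level of 85.7 and 54.7 CPM in the WT and 129.5 and 48.6 CPM in the KO tumours. After the free RNA of T and NK-like cells was subtracted cell for cell, 22.5, 10.5, 45.0 and 19.2 CPM of Col1a1 and 218, 233, 231 and 166 CPM of Col1a2 were left in WT 1, WT 2, KO 1 and KO 2. With all cells thinned to 1000 UMIs, Col1a1 was seen in 1.99% to 6.80% of Xist-low cells and 3.03% to 13.2% of T and NK-like cells, and Col1a2 in 16.4% to 24.7% and 5.04% to 14.6%. Without thinning, the Col1a1 shares were 17.5% to 87.3% and 7.73% to 43.0%, and the Col1a2 shares 86.8% to 98.3% and 12.1% to 42.8%. Median UMIs per cell were 12382 and 13076 in the WT and 41176 and 32555 in the KO tumours in Xist-low cells. In T and NK-like cells they were 1986 and 2064 in the WT and 3888 and 2822 in the KO tumours. Depth thus differed between the groups in both classes.

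**Figure D2:**
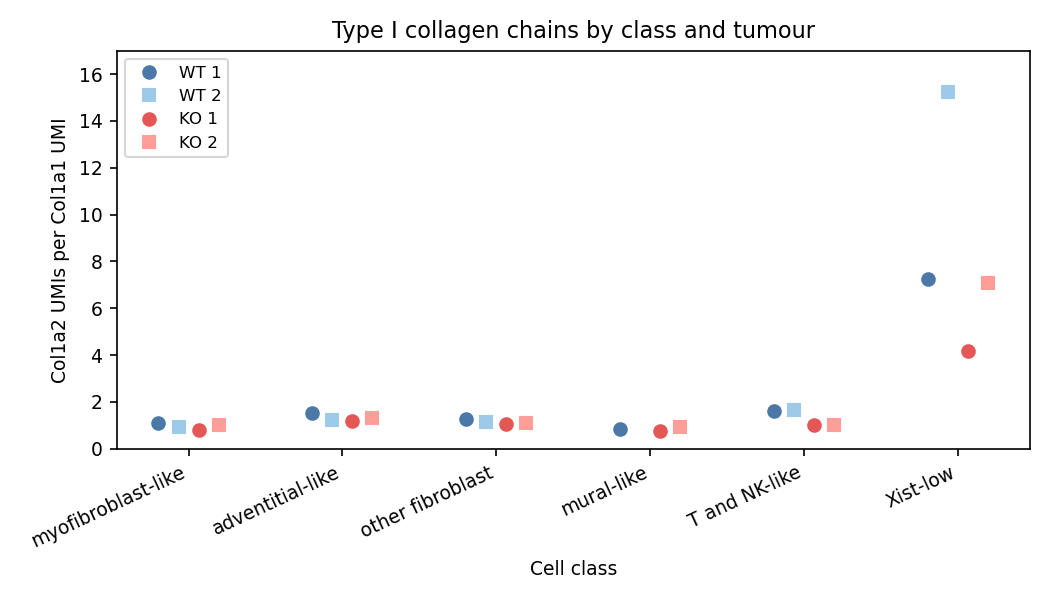
Col1a2 UMIs per Col1a1 UMI (vertical axis) in 6 cell classes, 1 point per tumour. The 4 Xist-low points lie between 4.16 and 15.2, above all points of the other classes, which end at 1.67; WT 2 has no mural-like cell.

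Basement membrane collagen was highest in the vessel cells. Col4a1 and Col4a2 encode the chains of the common type IV network, and their transcripts start head to head on chromosome 8, with an overlap of 22 bases (Col4a1 chr8:11198423-11312826, Col4a2 chr8:11312805-11449287). Col4a1 stood at 4063 and 3253 CPM in the WT and 4454 and 4089 CPM in the KO tumours in endothelial-like cells and at 3547 CPM in WT tumour 1 and 4424 and 4105 CPM in the KO tumours in mural-like cells, and these classes overlapped. Col4a2 stood at 2344 to 3192 CPM in endothelial-like and 2111 to 2293 CPM in mural-like cells. Fibroblast-like subtypes had far less, 545 to 674 CPM of Col4a1 in myofibroblast-like and 664 to 1183 CPM in adventitial-like cells. The minor type IV chains Col4a3 to Col4a6 were rare, and the clearest was Col4a4, with 20.5 to 44.1 CPM in adventitial-like and 0 to 0.965 CPM in myofibroblast-like cells. The adventitial-like sums of WT 1 and KO 2 held only 146073 and 88882 UMIs over all genes, so Col4a4 there rests on few UMIs. Col18a1, a basement membrane collagen whose end piece is endostatin, stood at 1208 CPM in WT tumour 1 and 1300.0 and 1463 CPM in the KO tumours in mural-like cells and at 910.1 and 668 CPM in the WT and 1041 and 1046 CPM in the KO tumours in endothelial-like cells. Its relative Col15a1 stood at 762 and 1025 CPM in the WT and 1080.2 and 1124 CPM in the KO tumours in endothelial-like cells, above mural-like (536 to 728 CPM) and myofibroblast-like cells (406 to 733 CPM).

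The type VI genes were broad. Col6a1, Col6a2 and Col6a3, the main chains of the beaded filament, stood at 1612 to 1887 CPM, 1407 to 1887 CPM and 1736 to 2084 CPM in mural-like cells, at 1399 to 2191 CPM, 988 to 1316 CPM and 1535 to 2042 CPM in myofibroblast-like cells, and at 163 to 369 CPM, 109.8 to 256 CPM and 237 to 345 CPM in Xist-low cells. The alternative chains split between classes. Col6a4 was found in mural-like cells at 35.2 to 62.7 CPM, against 0.700 to 2.10 CPM in Xist-low cells. Col6a6 was found in adventitial-like cells at 34.2 to 67.5 CPM, against 0 to 1.61 CPM in myofibroblast-like cells, and Col6a5 at 13.7 to 73.9 CPM against 0 to 1.93 CPM. These 3 genes lie side by side on chromosome 9, between positions 105687809 and 106096783. Col6a5 and Col6a6 rest on few UMIs in the adventitial-like cells of WT 1 and KO 2, whose sums held 146073 and 88882 UMIs over all genes.

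Several of the smaller collagens differed between the fibroblast-like subtypes. Of the 34 members, 10 were higher in all tumours' myofibroblast-like cells than in any tumour's adventitial-like cells, 5 were the reverse and 19 overlapped. How many of all genes separate the subtypes in this way was not counted. The adventitial-like sums of WT 1 and KO 2 rest on 22 and 12 cells, and the myofibroblast-like sum of WT 2 on 20. Col12a1, which decorates type I fibrils in tissue under strain, stood at 2935 and 2434 CPM in the WT and 2101 and 2834 CPM in the KO tumours in myofibroblast-like and at 239.6 and 30.7 CPM in the WT and 91.3 and 225 CPM in the KO tumours in adventitial-like cells. Col14a1, a fibril-associated collagen of similar build, did the opposite, with 1253 and 1171 CPM in the WT and 1324 and 2171 CPM in the KO tumours in adventitial-like and 197 and 39.7 CPM in the WT and 110.3 and 247 CPM in the KO tumours in myofibroblast-like cells. Col7a1, the anchoring fibril collagen, stood at 165 to 356 CPM in myofibroblast-like and 4.59 to 11.3 CPM in adventitial-like cells. Col8a1, a short-chain network collagen, stood at 338 to 725 CPM and 0 to 13.8 CPM, and the transmembrane Col23a1 at 46.3 to 129 CPM and 0 to 6.85 CPM. In Xist-low cells Col7a1 stood at 24.8 to 40.0 CPM and Col8a1 at 44.0 to 61.8 CPM, above the adventitial-like cells. Myofibroblast-like markers summed to 12699.8 to 17646 CPM in myofibroblast-like and 1710.1 to 3285 CPM in adventitial-like cells.

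The cells that held a tumour's collagen RNA changed between groups. Of all collagen UMIs of a tumour, Xist-low cells held 70.1% and 71.3% in the WT and 15.3% and 31.4% in the KO tumours, and fibroblast-like cells held 22.0% and 22.7% in the WT and 77.5% and 61.3% in the KO tumours. The groups did not overlap in either share. Of the cells kept, fibroblast-like cells were 1.36% and 1.98% in the WT and 4.05% and 2.69% in the KO tumours, and Xist-low cells 71.0% and 57.9% in the WT and 14.2% and 28.5% in the KO tumours. Both the number of cells and the UMIs per cell enter these shares: a fibroblast-like cell held on average 577 and 438 collagen UMIs in the WT and 1576 and 993 in the KO tumours, with median total UMIs of 10231 and 6359 in the WT and 17921 and 15246 in the KO tumours. By gene, Col1a1 UMIs came mostly from fibroblast-like cells in every tumour (73.4% and 88.8% in the WT and 94.0% and 92.9% in the KO tumours). Col6a3 UMIs came mostly from Xist-low cells in every tumour (85.5% and 82.6% in the WT and 58.6% and 76.8% in the KO tumours), as did those of Col7a1 (85.1% and 84.0% in the WT and 70.2% and 72.8% in the KO tumours). Col3a1 switched, with 78.7% and 75.8% in the WT and 14.8% and 31.8% in the KO tumours in Xist-low cells.

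**Figure D3:**
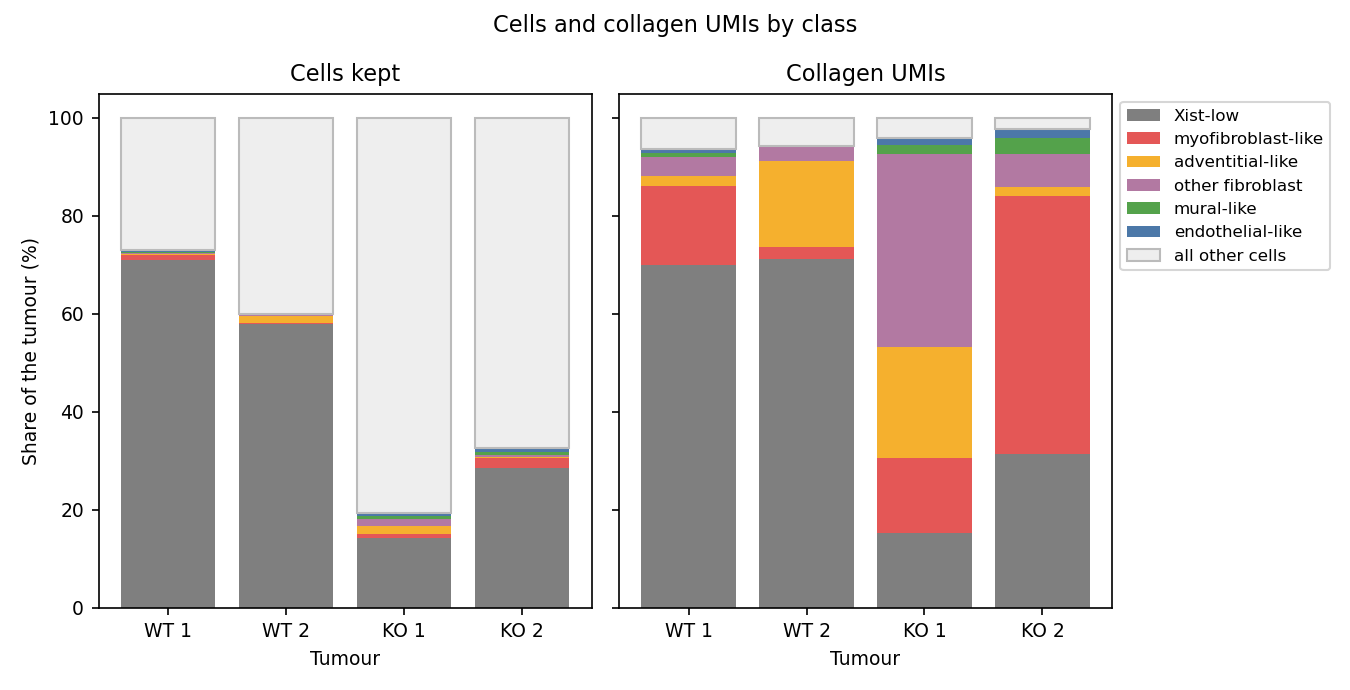
Share of the cells kept (left) and of all collagen UMIs (right) by cell class, in percent of each tumour; each bar is 1 tumour. Xist-low cells hold 70.1% and 71.3% of collagen UMIs in WT tumours 1 and 2 against 15.3% and 31.4% in KO tumours 1 and 2, and the fibroblast parts fill most of the difference.

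In the Xist-low cells 4 collagen genes fell in the KO tumours and none rose, of 29 members tested by edgeR's quasi-likelihood test over all genes. The share called among the members, 13.8%, stands beside 8.22% of all 17788 genes called in either direction and 4.04% called lower, with 4.18% called higher. Col3a1 stood at 916 and 1373 CPM in the WT and 525 and 263 CPM in the KO tumours, with no overlap of the groups (log2 fold change -1.61, SE 0.32, edgeR adjusted p = 0.0371). Col6a1 (chr10:76708792-76726168) stood at 294 and 369 CPM in the WT and 233 and 163 CPM in the KO tumours, again without overlap (log2 fold change -0.81, SE 0.18, edgeR adjusted p = 0.0452). Col18a1 (chr10:77052178-77166548) stood at 73.8 and 38.0 CPM in the WT and 23.6 and 21.7 CPM in the KO tumours, with WT tumour 1 well above the other 3 (log2 fold change -1.37, SE 0.29, edgeR adjusted p = 0.0414). Col4a5, a minor type IV chain, stood at 2.63 and 3.70 CPM in the WT and 1.28 and 0.617 CPM in the KO tumours (log2 fold change -1.83, SE 0.37, edgeR adjusted p = 0.0374). The partner chain of Col6a1, Col6a2, stood at 195 and 256 CPM in the WT and 166 and 109.8 CPM in the KO tumours (log2 fold change -0.77, SE 0.20, edgeR adjusted p = 0.0621) and passed with DESeq2, without the filter on low counts, without WT tumour 1, without KO tumour 1 and with thinned cells (adjusted p = 0.00227, 4.91e-06, 0.0256, 0.0339 and 0.0134). Col6a3 stood at 237 and 286 CPM in the WT and 345 and 268 CPM in the KO tumours (log2 fold change 0.16, SE 0.15, edgeR adjusted p = 0.501). Col1a2 and Col1a1, given above, did not pass (adjusted p = 0.319 and 0.331). Col5a3, Col16a1, Col5a1, Col4a1 and Col4a2 completed the 10 of highest level, and none passed in the main fit. Col5a1 was called lower by DESeq2 (log2 fold change -0.63, adjusted p = 0.0236). It was also called lower by edgeR without the filter on low counts (log2 fold change -0.65, adjusted p = 7.00e-05). Without WT tumour 1 and without KO tumour 1 its log2 fold changes were -0.80 and -0.94. Without the filter edgeR called Col16a1 lower too (adjusted p = 0.0433). The median log2 fold change of the 29 members was -0.26, beside -0.01 over all genes. DESeq2 called 8 members, 7 lower and 1 higher, of 29, and 15% of all genes (1400 higher and 1268 lower). Xist-low cells were deeper in the KO tumours, as given above. With cells thinned to 1000 UMIs edgeR called 3 of 18 members, all lower, beside 400 genes higher and 307 lower of 11590. Col4a5 and Col18a1 then did not pass (edgeR adjusted p = 0.0663 and 0.053). All 4 calls were lost after subtraction of free RNA, where 265 genes were called higher and 215 lower of 16447. Col3a1 then had a log2 fold change of -1.67 (edgeR adjusted p = 0.0683). The 4 calls were also lost without KO tumour 2, a fit with 1 KO tumour in which fewer of all genes were called too. There the log2 fold change of Col3a1 was -1.23. Without WT tumour 1 the count was 8.

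The Xist-low class holds 6 clusters, and the share of each differed between groups. Clusters 4 (led by Lbp, Prelp and Nhs) and 6 (led by Id3, Hes1 and Aldh3a1) together made up, of the Xist-low cells, 23.9% and 50.9% in the WT and 2.61% and 1.32% in the KO tumours. Clusters 0 (Phlda2, 2810468N07Rik, Cda), 1 (Gja4, Krt16, Gm42679) and 3 (Hist1h1b, Hist1h2ap, Hist1h2ae) made up 73.4% and 47.7% in the WT and 97.2% and 98.3% in the KO tumours, in the KO tumours mostly cluster 1, with 89.9% and 83.2%. Collagen levels differed between these clusters. Col3a1 stood at 3447 and 2954 CPM in the WT and 7769 and 2009.7 CPM in the KO tumours in cluster 4, where the KO tumours held only 20 and 15 cells. In cluster 1 it stood at 364 and 276 CPM in the WT and 480.4 and 262 CPM in the KO tumours, and the groups overlapped (log2 fold change 0.17, SE 0.25, edgeR adjusted p = 0.785), the opposite direction to the class as a whole. In clusters 0 and 3 its log2 fold changes were -1.25 (SE 0.25, edgeR adjusted p = 0.0356) and -0.86 (SE 0.30, edgeR adjusted p = 0.306). Col6a1 stood at 656 and 632 CPM in the WT and 962 and 512 CPM in the KO tumours in cluster 4 and at 204 and 188 CPM in the WT and 227 and 163 CPM in the KO tumours in cluster 1. Its log2 fold changes were -0.49 (SE 0.17, edgeR adjusted p = 0.146) in cluster 0, -0.05 (SE 0.15, edgeR adjusted p = 0.893) in cluster 1 and -0.33 (SE 0.21, edgeR adjusted p = 0.569) in cluster 3.

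Col18a1 stood at 63.8 and 36.0 CPM in the WT and 22.4 and 20.5 CPM in the KO tumours in cluster 1 (log2 fold change -1.24, SE 0.24, edgeR adjusted p = 0.0584) and at 85.2 and 50.2 CPM in the WT and 37.5 and 32.2 CPM in the KO tumours in cluster 0 (log2 fold change -1.03, adjusted p = 0.049), and its log2 fold change in cluster 3 was -0.85 (SE 0.30, edgeR adjusted p = 0.321). In cluster 1 the log2 fold changes of Col3a1 and Col18a1 differed in sign, a difference that was not tested. Fitted alone, cluster 0 gave 2 calls of 22 members tested (Col3a1 and Col18a1, both lower; 2.83% of all genes called, 1.34% higher and 1.5% lower), cluster 1 gave 0 of 25 (0.933%) and cluster 3 gave 0 of 24 (0.119%; 0.0669% higher and 0.052% lower). At an unadjusted p under 0.05 there were 9 members in cluster 0, 4 in cluster 1 and 4 in cluster 3. How many of all genes lay under that p was not counted, so these counts do not set collagens apart. Clusters 4 and 6 also held the fibroblast markers Dcn, Fbln2, Mmp2, Islr and Pcolce above other cells. Over the class, 3 of the 13 fibroblast markers fell (Dcn, Mmp2, Islr) and the list summed to 1582 and 1777 CPM in the WT and 1227 and 1020.0 CPM in the KO tumours, beside 10359.8 to 16905 CPM in fibroblast-like cells. Markers of T and NK cells rose in the same class, 7 of 12, with sums of 10.9 and 4.31 CPM in the WT and 36.8 and 27.3 CPM in the KO tumours and no marker at 0. The part of either list in the collagen result was not tested.

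**Figure D4:**
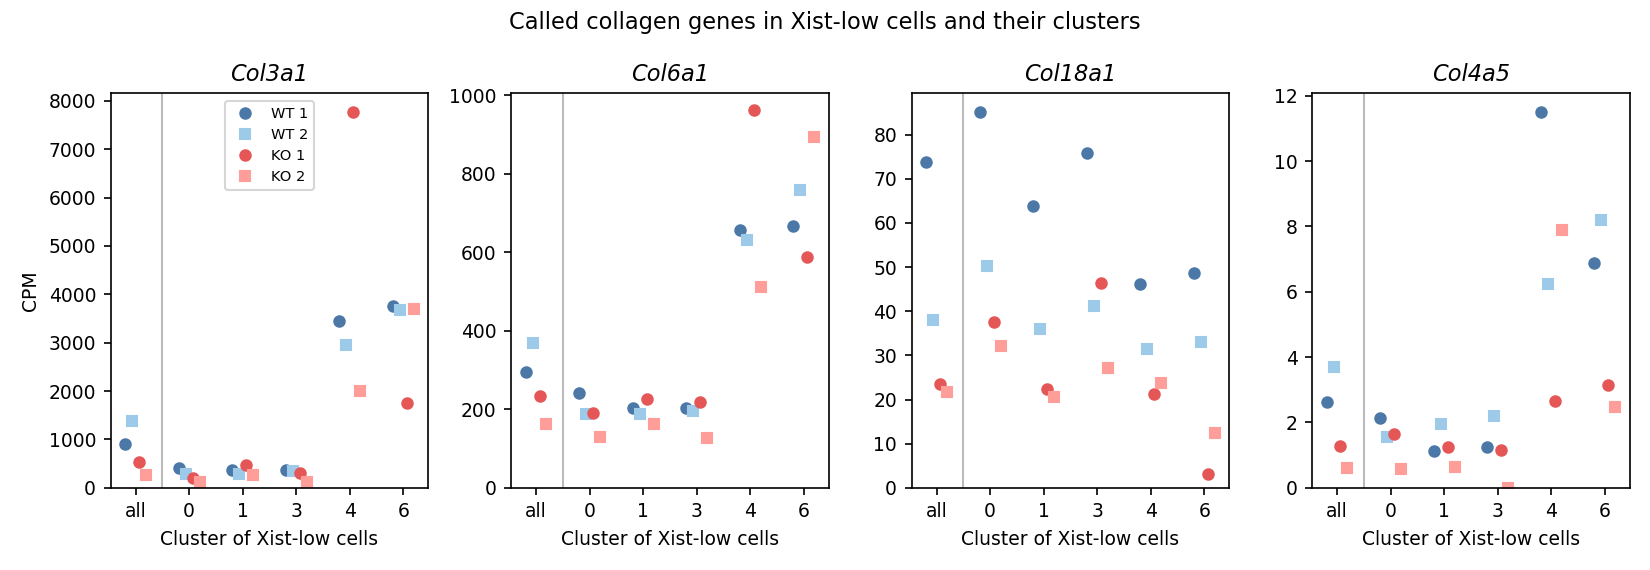
CPM (vertical axis, from 0) of the 4 called members in all Xist-low cells and in clusters 0, 1, 3, 4 and 6, 1 point per tumour. For Col3a1 and Col6a1 the WT points of clusters 4 and 6 lie above those of clusters 0, 1 and 3; for Col18a1 the WT 1 point is the highest in each column. Clusters 4 and 6 hold 12 to 20 cells in each KO tumour.

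In the fibroblast-like cells as a whole no collagen gene passed, of 27 members tested, and no gene of the 10979 tested passed either (0% called). No member reached an unadjusted p under 0.05 by edgeR and 1 did by DESeq2, which called 0 members (0.255% of all genes). Col1a1 stood at 12505 and 12629 CPM in the WT and 24492 and 19580.2 CPM in the KO tumours, with both KO tumours above both WT tumours (log2 fold change 0.84, SE 0.37, edgeR adjusted p = 0.977). Col1a2 stood at 14371 and 14727 CPM in the WT and 25365 and 19828 CPM in the KO tumours (log2 fold change 0.67, SE 0.38, edgeR adjusted p = 1), again without overlap. Col3a1 stood at 12844 and 23696 CPM in the WT and 23324 and 12899 CPM in the KO tumours, and the groups overlapped. Members that differ between the subtypes varied within groups: Col12a1 stood at 2181 and 378 CPM in the WT and 821 and 2543 CPM in the KO tumours and Col14a1 at 388 and 962 CPM in the WT and 964 and 404 CPM in the KO tumours. Col12a1 was lowest in WT 2, which held the smallest share of myofibroblast-like cells. Left without 1 sub-cluster of high doublet score, the class again gave 0 calls.

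Within the myofibroblast-like cells 0 of 23 members passed (0.95% of all genes called). Counted for members only, 3 had an unadjusted p under 0.05: Col1a1, Col27a1 and Col6a1. Col1a1, given above by tumour, was higher in both KO tumours (log2 fold change 0.53, SE 0.18, edgeR adjusted p = 0.262) and did not pass under any alternative. Col27a1, a fibrillar collagen of cartilage, stood at 79.5 and 44.7 CPM in the WT and 97.7 and 115 CPM in the KO tumours (log2 fold change 0.63, SE 0.27, edgeR adjusted p = 0.442). Col6a1 stood at 1876 and 2191 CPM in the WT and 1399 and 1501 CPM in the KO tumours, lower in both KO tumours (log2 fold change -0.48, SE 0.21, edgeR adjusted p = 0.447). Col1a2 and Col3a1 overlapped between groups. Different sub-clusters held most of the class in the groups: sub-cluster 5 held 80 of 107 and 15 of 20 cells in WT 1 and WT 2, whereas sub-cluster 1 held 56 of 77 and 110 of 185 and sub-cluster 8 a further 10 and 67 in KO 1 and KO 2. The WT 2 sum rests on 20 cells. DESeq2 called 0 members here (0.792% of all genes), with 1 at an unadjusted p under 0.05, and without KO tumour 1 edgeR called 1.

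Within the adventitial-like cells 0 of 21 members passed (1.01% of all genes called, 0.822% higher). Counted for members only, 2 had an unadjusted p under 0.05. These were Col6a5, with 13.7 and 73.9 CPM in the WT and 22.0 and 45.0 CPM in the KO tumours (log2 fold change -1.32, SE 0.48, edgeR adjusted p = 0.386), and Col27a1, with 20.5 and 21.1 CPM in the WT and 7.80 and 11.3 CPM in the KO tumours (log2 fold change -1.42, SE 0.62, edgeR adjusted p = 0.63). Next by p came Col28a1, with 34.2 and 45.1 CPM in the WT and 25.2 and 0 CPM in the KO tumours (log2 fold change -0.95, SE 0.48, edgeR adjusted p = 0.827). The Col6a5 groups overlapped and those of Col27a1 did not, but the Col27a1 values of WT 1 and KO 2 rest on very few UMIs. Col1a1 and Col1a2 were higher in both KO tumours without passing (adjusted p = 0.964 and 1). DESeq2 called 0 members (0.245% of all genes), none with an unadjusted p under 0.05. Here too most cells came from different sub-clusters, with 21 of 22 and 155 of 157 from sub-cluster 0 in WT 1 and WT 2, and 97 of 134 and 7 of 12 from sub-cluster 7 in KO 1 and KO 2. The WT 1 and KO 2 sums rest on 22 and 12 cells, with 146073 and 88882 UMIs over all genes. The count was 2 without WT tumour 1, Col6a5 among them (adjusted p = 0.00181), and 1 without WT tumour 2.

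Mural-like cells were not tested, since WT 2 held none, and their values have no replicate in the WT group. Col1a1 stood at 2551 CPM in WT tumour 1 and 3787 and 3678 CPM in the KO tumours, Col1a2 at 2181 CPM in WT tumour 1 and 2843 and 3393 CPM in the KO tumours and Col3a1 at 1899.7 CPM in WT tumour 1 and 1949 and 2460.2 CPM in the KO tumours. Collagen genes together were 2.14% of UMIs in WT 1 and 2.59% and 2.64% in the KO tumours. Myofibroblast markers, a list that shares contractile genes with mural cells, summed to 9403 to 10689 CPM in mural-like cells, while fibroblast markers summed to 875 to 1321 CPM.

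In endothelial-like cells 1 of 14 members rose (7.14%; 1.14% of all genes called, 0.996% higher). Col8a1, a network collagen known from vessel walls and the cornea (chr16:57624258-57754737), stood at 12.9 and 0 CPM in the WT and 126 and 76.4 CPM in the KO tumours, from 4, 0, 113 and 57 UMIs in WT 1, WT 2, KO 1 and KO 2 (log2 fold change 3.40, SE 0.60, edgeR adjusted p = 0.0248). It was found in 3 of 40, 0 of 16, 23 of 55 and 16 of 71 cells. The call was lost without WT tumour 1, without either KO tumour, after free RNA was subtracted and with doublets kept (adjusted p = 0.0548, 0.712, 0.884, 0.0915 and 0.0598), and with cells thinned to 1000 UMIs the gene was too rare to be tested. Without KO tumour 1, without KO tumour 2, with free RNA subtracted and with doublets kept its log2 fold changes were 3.03, 3.71, 3.75 and 2.77, and without WT tumour 1 none is given, since WT 2 held 0 UMIs. Without KO tumour 1, and likewise without KO tumour 2, 0 of all genes tested were called. Col13a1, a transmembrane collagen (chr10:61838236-61979108), went the other way with 96.8 and 160.4 CPM in the WT and 40.0 and 9.39 CPM in the KO tumours and did not pass (log2 fold change -2.22, SE 0.52, edgeR adjusted p = 0.0746). It was called by DESeq2 (adjusted p = 0.0377), which called 3 members in all (0.664% of all genes). Of the endothelial-like cells, sub-cluster 11 held 27 of 40 and 6 of 16 in WT 1 and WT 2, and sub-cluster 4 held 47 of 55 and 59 of 71 in KO 1 and KO 2. In the other named classes Col13a1 was at or near 0, with at most 0.864 CPM in myofibroblast-like cells. Next by p came Col3a1, with 126 and 446 CPM in the WT and 100.02 and 36.2 CPM in the KO tumours (log2 fold change -1.90, SE 0.57, edgeR adjusted p = 0.154). DESeq2 called it lower (log2 fold change -2.09, adjusted p = 0.0396), and without WT tumour 1 its log2 fold change was -2.73. Without the filter on low counts edgeR called Col3a1 and Col13a1 lower and Col1a1 higher (adjusted p = 2.65e-06, 7.62e-06 and 3.85e-06). All genes called there were 277 higher and 72 lower of 16608. Col1a1 had 7, 1, 166 and 26 UMIs in WT 1, WT 2, KO 1 and KO 2. The network genes of these cells did not pass, Col4a1 at 4063 and 3253 CPM in the WT and 4454 and 4089 CPM in the KO tumours (log2 fold change 0.19, SE 0.20, edgeR adjusted p = 0.744) and Col4a2 at 2992 and 2344 CPM in the WT and 3192 and 2929 CPM in the KO tumours (log2 fold change 0.16, SE 0.20, edgeR adjusted p = 0.779). Mononuclear phagocyte markers summed to 239 and 1791 CPM in the WT and 567 and 404 CPM in the KO tumours and T and NK markers to 3.23 and 0 CPM in the WT and 149 and 77.8 CPM in the KO tumours in this class, with Klrb1c at 0. Myofibroblast markers, which mark the class highest in Col8a1, summed to 61.3 and 152 CPM in the WT and 184 and 59.0 CPM in the KO tumours. The part of these lists in the Col8a1 result was not tested.

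Over all cells of a tumour 11 of 36 members passed, 6 higher and 5 lower in the KO tumours (30.6%; 17.7% of all genes called, 13% higher and 4.76% lower). Without TMM scaling 6 passed, 4 higher and 2 lower, beside 2572 genes higher and 514 lower of 20157. With all cells thinned to 1000 UMIs 11 of 25 passed, 4 higher and 7 lower, beside 3124 genes higher and 2150 lower of 14477, and the median log2 fold change was -0.25 for members and -0.01 for all genes. Col27a1 then did not pass (log2 fold change 0.12, adjusted p = 0.701), and Col6a2 was called lower (log2 fold change -1.34, adjusted p = 0.00421), as were Col6a3 and Col5a3. Col1a1 stood at 217 and 184 CPM in the WT and 1622 and 626 CPM in the KO tumours (log2 fold change 2.35, SE 0.42, edgeR adjusted p = 0.0187) and Col1a2 at 428 and 411 CPM in the WT and 1774 and 739 CPM in the KO tumours (log2 fold change 1.45, SE 0.38, edgeR adjusted p = 0.0488). Col5a2 (log2 fold change 1.16, SE 0.26, edgeR adjusted p = 0.0306), Col15a1 (log2 fold change 1.80, SE 0.45, edgeR adjusted p = 0.0433), Col24a1 (log2 fold change 2.08, SE 0.46, edgeR adjusted p = 0.0307) and Col27a1 (log2 fold change 0.72, SE 0.17, edgeR adjusted p = 0.0366) rose too. Those that fell were Col6a1 (log2 fold change -0.78, SE 0.20, edgeR adjusted p = 0.0437), Col16a1 (log2 fold change -0.60, SE 0.15, edgeR adjusted p = 0.0407), Col4a5 (log2 fold change -2.18, SE 0.39, edgeR adjusted p = 0.0186), Col6a4 (log2 fold change -1.20, SE 0.31, edgeR adjusted p = 0.046) and Col2a1, the cartilage collagen, with 54 UMIs in all (log2 fold change -2.29, SE 0.48, edgeR adjusted p = 0.0269). Col3a1, the member with most UMIs, stood at 1025 and 1492 CPM in the WT and 1797 and 595 CPM in the KO tumours, and the groups overlapped (log2 fold change -0.21, SE 0.48, edgeR adjusted p = 0.788). In such whole-tumour sums a change in cell numbers and a change in RNA per cell cannot be told apart. Fewer members were called without WT tumour 2 and without KO tumour 1, fits with 1 tumour left in a group. Fewer of all genes were called there too. Of the 11 calls, Col4a5 alone passed without WT tumour 2 (Col1a1 had an adjusted p of 0.0557), and Col1a1, Col4a5 and Col6a1 passed without KO tumour 1. Col1a2 then had a log2 fold change of 0.75 (adjusted p = 0.0961).

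**Figure D5:**
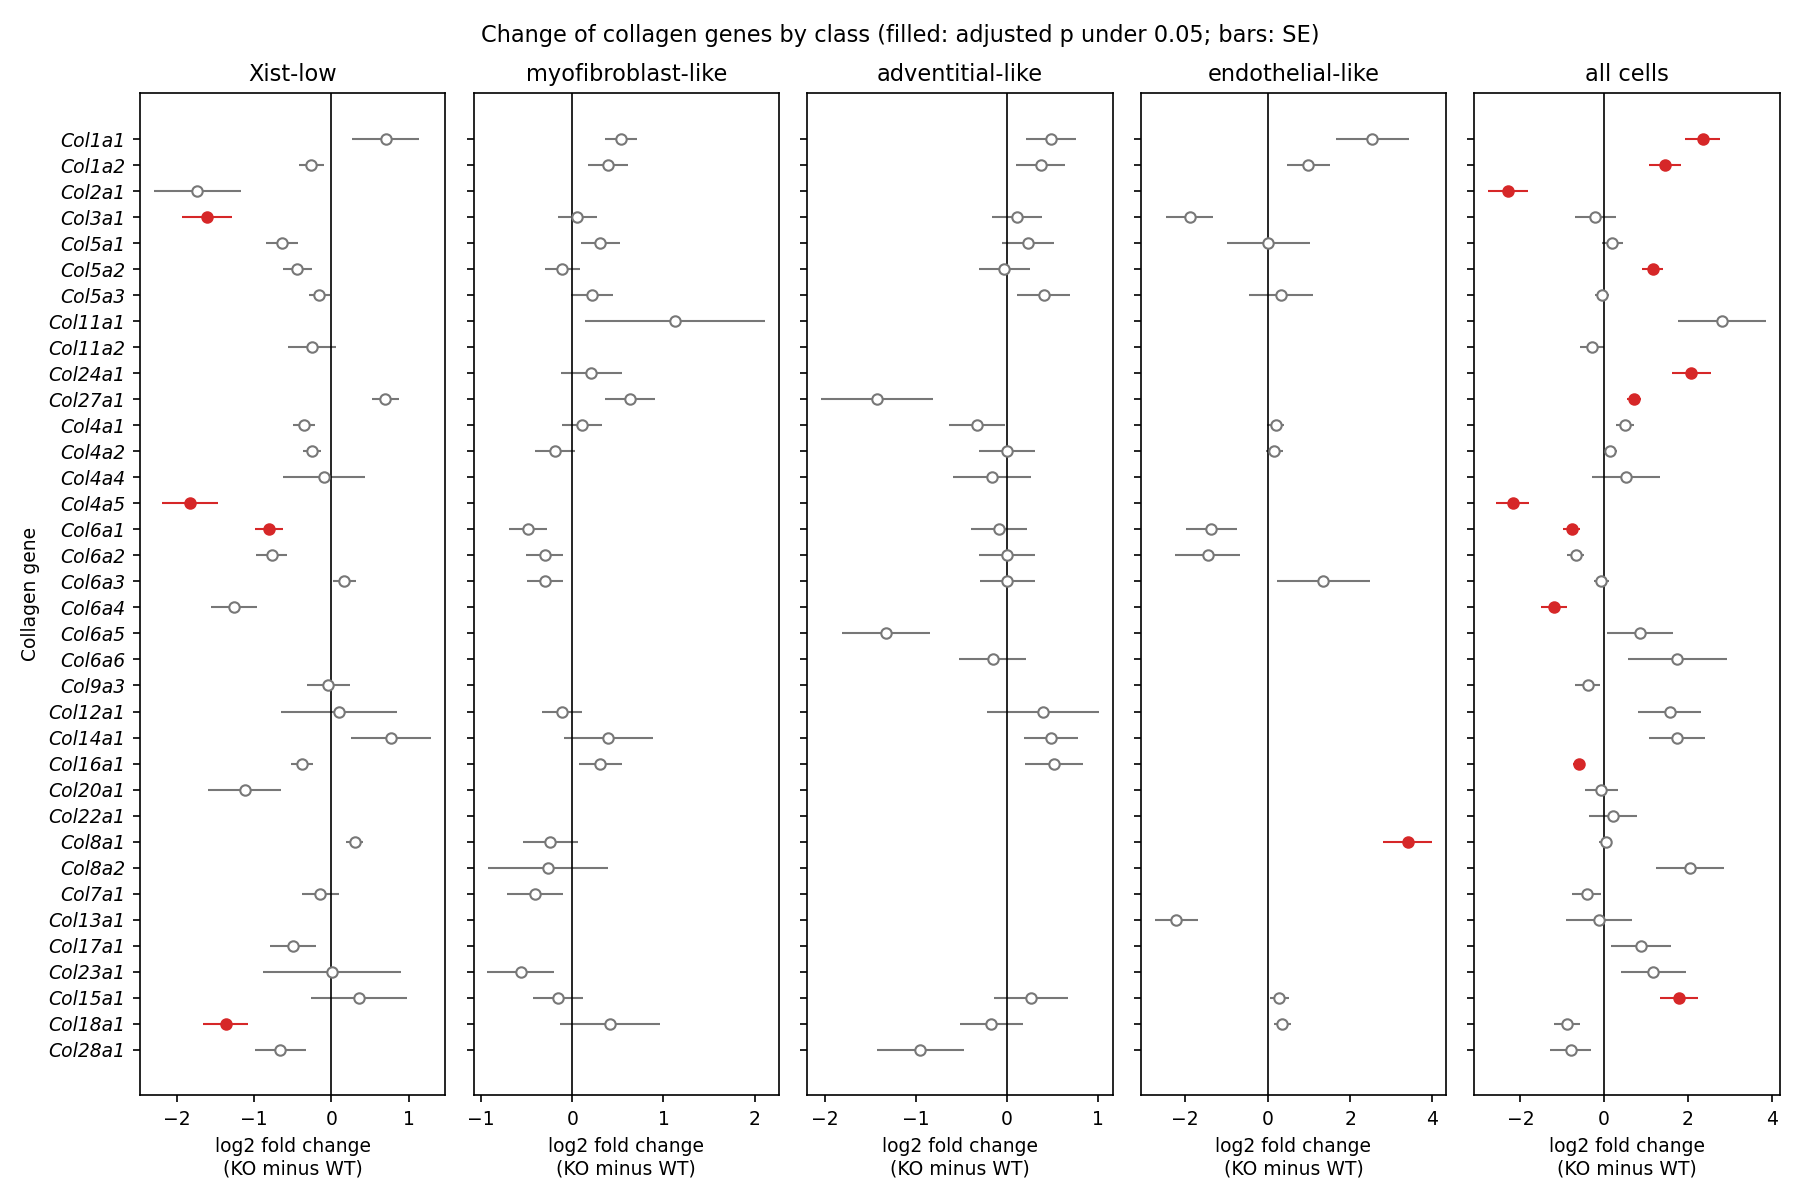
log2 fold change, KO minus WT (horizontal axis, its range set for each panel), of the members tested in Xist-low, myofibroblast-like, adventitial-like and endothelial-like cells and in all cells; bars are the SE of the edgeR fit and filled red points have an adjusted p under 0.05. The 4 filled points of Xist-low cells lie below 0, no point is filled in the fibroblast subtypes, and 6 of the 11 filled points over all cells lie above 0.

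Whether the change differed between fibroblast-like and Xist-low cells was tested directly, with both classes of the 4 tumours in 1 fit. None of 34 members passed (3 of 17109 genes, 0.0175%), and DESeq2 called 2 (0.275% of all genes). By edgeR, 7 members had an unadjusted p under 0.05, a count not made over all genes. The smallest p was that of Col3a1, whose log2 fold change was 1.70 higher in fibroblast-like cells (SE 0.37, edgeR adjusted p = 0.306). Col5a1 differed by 1.08 (SE 0.35, adjusted p = 0.663) and Col16a1 by 1.12 (SE 0.36, adjusted p = 0.672). A fall of Col3a1 in Xist-low cells and no call in fibroblast-like cells is therefore not shown to be a difference between the classes.

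Genes that make, bind, cut or sense collagen were read from 6 lists, beside 4.18% of all genes called higher and 4.04% called lower in Xist-low cells. In Xist-low cells 1 of 19 genes of synthesis and folding rose, Plod3, which hydroxylates lysines of collagen (54.2 and 53.4 in the WT and 76.4 and 72.5 TMM-scaled CPM in the KO tumours, log2 fold change 0.47, SE 0.10, edgeR adjusted p = 0.0412), and 1 fell, P4ha1, a subunit of prolyl 4-hydroxylase (137 and 151 in the WT and 103 and 81.1 TMM-scaled CPM in the KO tumours, log2 fold change -0.65, SE 0.14, edgeR adjusted p = 0.0449). Of 10 genes of secretion and propeptide cleavage 1 rose, the protease Furin (58.5 and 51.5 in the WT and 115 and 109 TMM-scaled CPM in the KO tumours, log2 fold change 1.02, SE 0.11, edgeR adjusted p = 0.012). Of 9 fibril-binding genes 2 fell, fibronectin, Fn1 (176 and 158 in the WT and 61.1 and 42.1 TMM-scaled CPM in the KO tumours, log2 fold change -1.70, SE 0.19, edgeR adjusted p = 0.012), and the proteoglycan decorin, Dcn (291 and 421 in the WT and 83.7 and 57.7 TMM-scaled CPM in the KO tumours, log2 fold change -2.33, SE 0.25, edgeR adjusted p = 0.0119). Of 10 collagenases, gelatinases and their inhibitors 1 fell, Mmp2 (425 and 404 in the WT and 299.9 and 277 TMM-scaled CPM in the KO tumours, log2 fold change -0.52, SE 0.12, edgeR adjusted p = 0.0497). None of 6 cross-linking genes and none of 9 collagen receptors passed. Dcn and Mmp2 are also on the list of fibroblast markers. In the fibroblast-like, myofibroblast-like and endothelial-like cells no gene of the 6 lists passed by edgeR. In adventitial-like cells 1 did, the protease inhibitor Timp3, which was higher in the KO tumours (log2 fold change 2.16, SE 0.38, edgeR adjusted p = 0.00355).

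Over all cells, where 13% of all genes were called higher and 4.76% lower, 4 of 10 collagen receptors rose: the integrin chains Itga1 (log2 fold change 2.51, SE 0.29, edgeR adjusted p = 0.00664), Itga2 and Itga11, and Lair1 (log2 fold change 1.87, SE 0.25, edgeR adjusted p = 0.00919), an inhibitory receptor of leukocytes. Of 10 collagenases and related genes Mmp9 and Ctsk rose and Mmp2 fell. Of 19 genes of synthesis and folding Creb3l1 rose and P4ha1 and P3h4 fell, of 12 of secretion and cleavage Furin and Tll1 rose and Sec23a fell, and of 6 cross-linking genes the transglutaminase Tgm2 rose. None of 11 fibril-binding genes passed. The leukocyte gene Ptprc rose in the same sums (log2 fold change 2.43, SE 0.24, edgeR adjusted p = 0.00528), and its part in these counts was not tested.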

How the data were processed

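The deposited matrices hold counts: UMIs per gene and cell barcode of 4 libraries, which the authors made with Cell Ranger and the mm10 genome. Its version is 5.0.1 per the labels' protocols and 6.1.2 per the file headers. The submitters' processing notes also list Seurat 5.1.0, with no role given. Cells with at least 500 UMIs, at least 300 genes and at most 20% mitochondrial UMIs were kept. Doublets were removed by Scrublet score at a rate of 0.8% per 1000 barcodes, because its own threshold marked 0% of both WT libraries. This removed 715 to 1288 cells a tumour and left 8648 to 11344.

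Cells were clustered with scanpy 1.11.5 and leidenalg 0.10.2 (2000 variable genes, 30 components, 15 neighbours, resolution 1), with the collagen genes left out, and a cluster was named from at least 3 markers. Mural and fibroblast cells had merged, so the host stromal clusters were clustered again, which was decided after seeing the data. Counts were summed per class and tumour where every tumour held at least 10 cells. KO and WT sums were compared by edgeR 4.0.16 with TMM scaling, its filter on low counts, the quasi-likelihood test and Benjamini-Hochberg adjustment over all genes, with a threshold of 0.05, in R 4.3.3. DESeq2 1.42.0 was an alternative. CPM in the text is unscaled unless TMM is named. Counts at an unadjusted p under 0.05 were made for members only, so no share of all genes stands beside them. The fit was tested on simulated data. The free RNA subtracted was the mean UMIs of a gene per T and NK-like cell of the same tumour.

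The members and lists were chosen with earlier results of these data known. Named members are those called, the 10 of highest level in a class and, where fewer than 3 were called, the 3 of smallest p. Symbols and coordinates came from the deposited features and GENCODE vM21, and promoter sequences from RefSeq.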

Additional observations from a re-analysis of the deposited data

How the results depend on the processing

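The 4 calls in Xist-low cells became 8 with DESeq2, 11 without a filter on low counts and 0 with free RNA subtracted, and 0 to 8 when each tumour was left out in turn. Clusters 0, 1 and 3 alone, chosen after seeing the data, gave 2, 0 and 0. The 0 calls in fibroblast-like cells became 2 without the filter. Leaving out tumours gave 0 to 0 in fibroblast-like, 0 to 1 in myofibroblast-like, 0 to 2 in adventitial-like and 0 to 1 in endothelial-like cells, 2 to 10 over all cells and 0 to 4 for the difference between classes. The 1 call in endothelial-like cells became 3 with DESeq2, 4 without the filter, and 0 with free RNA subtracted, with thinned cells (0) and with doublets kept (0). The 11 calls over all cells became 6 without TMM. The 0 differences between classes became 2 with DESeq2, 4 without the filter, 1 with thinned cells and 1 with doublets kept. The cause of these shifts was not tested. Where the filter was left out more genes were tested. The number of all genes called moved with the settings too. In Xist-low cells 1916 genes were called higher and 1887 lower of 30781 without the filter. With free RNA subtracted 265 were called higher and 215 lower of 16447 there. Over all cells 2572 were called higher and 514 lower of 20157 without TMM.

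Among single members, 807 of 964 log2 fold changes under the alternatives kept their direction and side of the threshold, 67 lost a call, 27 gained one and 63 changed sign. DESeq2 gave 3 of them no adjusted p. Of those that changed sign, 62 were of members not called to begin with, and 0 were called after the change. The values that changed sign follow by setting. With cluster 0 alone they were Col5a3 0.14 and Col4a2 0.047 in Xist-low cells. With cluster 1 alone they were Col3a1 0.17, Col1a2 0.19, Col6a2 0.018, Col16a1 0.065, Col5a1 0.056 and Col4a2 0.11 in Xist-low cells. With cluster 3 alone they were Col5a3 0.31 and Col4a2 0.012 in Xist-low cells. With no TMM they were Col3a1 -0.012 in fibroblast-like cells, and Col6a3 0.052 and Col5a3 0.059 in all cells. With free RNA subtracted they were Col3a1 -0.036 in fibroblast-like cells, and Col6a3 -0.052 and Col6a2 -0.019 in adventitial-like cells. With thinned cells they were Col3a1 -0.0047 and Col5a3 -0.10 in fibroblast-like cells, Col5a3 -0.021 in myofibroblast-like cells, Col3a1 -0.058 and Col6a2 -0.24 in adventitial-like cells, Col4a2 -0.016 and Col15a1 -0.083 in endothelial-like cells, and Col5a1 -0.25 in all cells. With no filter they were Col6a3 0.019 in fibroblast-like cells. With doublets kept they were Col6a3 0.10 and Col6a2 0.063 in fibroblast-like cells, and Col5a2 0.077 and Col6a3 -0.043 in adventitial-like cells. With collagen genes kept in the clustering they were Col6a3 0.00082 in fibroblast-like cells, and Col5a2 0.068 and Col6a3 -0.019 in adventitial-like cells. With the replicate block they were Col6a1 0.0058 in adventitial-like cells. With Leiden resolution 2.0 they were Col5a2 0.14, Col6a3 -0.067 and Col6a2 -0.013 in adventitial-like cells. Leaving out each tumour in turn gave ranges that crossed 0 for Col12a1 -0.58 to 2.17, Col3a1 -0.47 to 0.56, Col6a1 -0.29 to 0.030, Col6a2 -0.25 to 0.14 and Col6a3 -0.056 to 0.027 in fibroblast-like cells. Likewise the ranges were Col12a1 -0.38 to 0.14 and Col3a1 -0.20 to 0.30 in myofibroblast-like cells. Likewise the ranges were Col3a1 -0.076 to 0.38, Col4a1 -0.71 to 0.0072, Col5a2 -0.12 to 0.16, Col6a1 -0.47 to 0.55, Col6a2 -0.36 to 0.60 and Col6a3 -0.28 to 0.41 in adventitial-like cells. Likewise the ranges were Col3a1 -1.14 to 0.40, Col5a1 -0.20 to 0.55, Col5a3 -0.22 to 0.11 and Col6a3 -0.17 to 0.058 in all cells.

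With the replicate number as a block, counts were 8 in Xist-low cells, 2 in endothelial-like cells, 7 over all cells and 0 in fibroblast-like cells. Same-numbered tumours did not deviate together (correlation -0.09 in Xist-low and -0.59 in fibroblast-like cells), and no source says what the number shares. Crossed numbers, added after seeing the data, gave 0 members in fibroblast-like cells, with 93 genes higher and 13 lower.

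Leaving out TMM moved the median log2 fold change of all genes over whole tumours from -0.04 to 0.08. Precision is limited by 12 to 22 cells in some sums and by 2 tumours a group, and p-values cover no other source of error.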

Other observations

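In the fibroblast-like cells of neither subtype, Col1a1 stood at 10303 and 14948 CPM in the WT and 38108 and 26069 CPM in the KO tumours, without overlap, and Col1a2 at 13274 and 17184 CPM in the WT and 40638 and 28768 CPM in the KO tumours. Most of these cells in the KO tumours, 135 of 139 and 34 of 39, were 1 sub-cluster led by Ptx3, H19 and Cpz, which held 5 and 1 cells in the WT tumours. Against other fibroblast-like cells it was led by Gzmc, Csf3 and Gzmb. Most WT cells, 20 of 25 and 23 of 24, were another sub-cluster, led in that way by Aldh3a1, Cst6 and Dkk2. Of that sub-cluster 44.7% of cells had been removed as doublets. The part of either in these levels was not tested. No test was made, because the class differs in make-up between the groups.

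Col17a1, a transmembrane collagen of epithelia, had 315 UMIs in KO tumour 1 and 63 to 109 in the others. Of the 315, 264 lay in 22 cells of unnamed clusters.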
